A study of Homo sapiens with 18 samples.

Results

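The spindle checkpoint and outer kinetochore were followed here through 10 genes, taken by their NCBI Gene ID from the expression tables of all 18 libraries, out of 21662 gene IDs listed over those tables. They are the checkpoint kinases and pseudokinase TTK (ID 7272), BUB1 (ID 699) and BUB1B (ID 701), the checkpoint adaptors BUB3 (ID 9184), MAD1L1 (ID 8379) and MAD2L1 (ID 4085), and the 4 subunits of the NDC80 complex, NDC80 (ID 10403), NUF2 (ID 83540), SPC24 (ID 147841) and SPC25 (ID 57405). RNA was sequenced from SNT-8, SNK-10 and SNT-16 cells, 3 established lines of NK/T cell lymphoma that are all labelled with a WT genotype. Each line was treated for 12 h with icaritin, a plant flavonoid from Epimedium, or with DMSO as the solvent control, and each of the 6 groups held 3 libraries. The dose of icaritin is not given in the sources used here, and nothing there says whether replicates were separate cultures, so the p-values speak of the spread among these libraries, which may be technical.

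The spindle checkpoint holds a dividing cell before anaphase until its chromosomes are attached to microtubules. TTK and BUB1 act at unattached kinetochores, where MAD1L1 carries MAD2L1, and the soluble complex of MAD2L1, BUB1B and BUB3 with CDC20 restrains the anaphase-promoting complex (APC/C). The NDC80 complex is the main microtubule-binding rod of the outer kinetochore: NDC80 and NUF2 form its microtubule-binding end, and SPC24 and SPC25 its end towards the chromosome.

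Expected counts, the authors' estimates of the fragments of a gene, summed to between 9526431 and 10100453 per library, and all 10 genes were among the 14396 with enough counts to test. T and NK cell genes were expressed, as the labels of the lines have it, at unlike levels. CD3E lay between 182.88 and 253.85 FPKM and GZMB between 476.52 and 2023.62 FPKM, the highest medians of their lists. CD2, CD247, PRF1 and NKG7 stayed at 62.3 FPKM or more, while CD3D went down to 11.62 FPKM and CD3G to 3.43 FPKM. The NK cell genes NCAM1 and KLRD1 had medians of 7.9 and 8.25 FPKM. GNLY, a cytotoxic gene like GZMB, was low in most libraries, with a median of 0.58 FPKM. Of the B cell genes, MS4A1 was at 0 in 15 of the 18 libraries and CD79B in 13, but CD79A was at 0 in 1 and PAX5 in none, at up to 1.71 FPKM. Of the myeloid genes, CD163 was at 0 in 17 and CD14 in 11, but LYZ lay between 6.18 and 10.31 FPKM, ITGAM between 3 and 5.09 FPKM and CSF1R between 0.32 and 3.36 FPKM. Their part in the results was not tested. PLK1, the mitotic kinase named in the title of the series, was lower after icaritin in each line, with log2 fold changes of -1.78 ± 0.177 (SE) in SNT-8, -1.23 ± 0.17 in SNK-10 and -1.74 ± 0.176 in SNT-16. Icaritin replicate 2 of SNT-8 stood furthest apart from its replicates, by a chi-square per gene of 5.96 and 8.18. All other pairs of replicates gave 1.37 to 4.13. Without that library the log2 fold change of PLK1 in SNT-8 was -1.51 (adjusted p = 3.01e-23). The same 8 members were called in SNT-8 with and without that library, and values without it stand below where they moved by a margin. Icaritin replicate 3 of SNK-10 came next, with 3.41 and 4.13 against its replicates, which differed from each other by 1.53. By counts scaled to library size, it held the highest SNK-10 icaritin value for TTK, BUB1, BUB1B, BUB3, MAD2L1, NDC80, NUF2 and SPC24. In fits that left out each library in turn, this one included, TTK, BUB1 and BUB1B kept a called difference in response between the lines. Of 18 such fits, 0 lost the call for these genes, and 12 lost it for MAD2L1. Beyond these fits, the part of that replicate in the smaller falls of SNK-10 was not tested.

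Icaritin did not move these genes in a single direction. In the mean response of the 3 lines, 6 of the 10 fell (TTK, BUB1, BUB1B, MAD2L1, NDC80 and NUF2), 2 rose (MAD1L1 and SPC24) and 2 did not pass the threshold (BUB3 and SPC25), where a call is an adjusted p under 0.05 over all 14396 genes in edgeR's quasi-likelihood test with Benjamini-Hochberg adjustment. Among all tested genes 61.7% were called in that mean response, 30% lower and 31.7% higher. In SNT-8, 6 members fell and 2 rose, against a background of 25% lower and 24% higher. In SNK-10, 3 fell and 2 rose; 5 of 10 called is close to the 48.4% of all tested genes called in that line. In SNT-16, 4 fell and 2 rose, where 42% of all tested genes were called, 20.8% lower and 21.2% higher. BUB1, BUB1B and NUF2 fell in each of the 3 lines, as did 14.3% of all tested genes, and MAD1L1 and SPC24 rose in each, as did 13%. By the values alone, 6 members had every icaritin library below every DMSO library in SNT-8 and 2 had every one above, where 27.6% and 26.5% of all tested genes did so. The same count was 4 below and 2 above in SNK-10, beside 27.4% and 27.8%, and 6 below and 2 above in SNT-16, beside 26.1% and 26.6%. The median log2 fold change of the members was -0.38 in SNT-8, 0.01 in SNK-10 and -0.13 in SNT-16, beside medians of 0.02, 0.01 and 0.02 over all tested genes in the same lines. In bulk RNA such as this, fewer cells that carry a transcript and less of it per cell cannot be told apart.

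**Figure D1:**
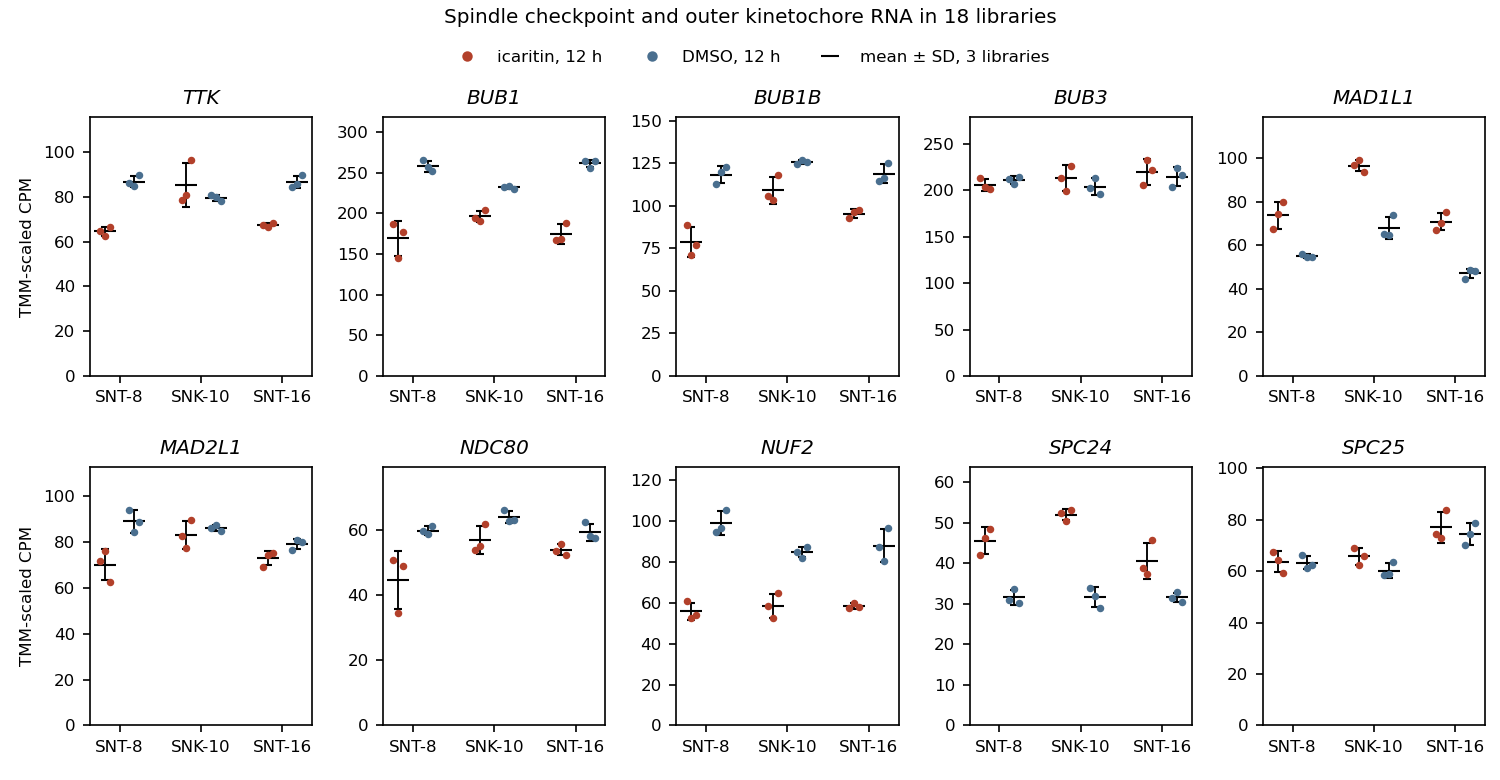
Each panel plots 1 gene in the 18 libraries, in CPM, the expected count per size of the library after TMM scaling, against the cell line; points are libraries, with icaritin left of DMSO, and black marks are the mean ± SD of 3 libraries. MAD1L1 and SPC24 were higher in all icaritin libraries of a line than in its DMSO libraries, NUF2, BUB1, BUB1B and NDC80 were lower, and BUB3 and SPC25 overlapped in each line.

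The promoter sequences are shown because members with and without a cell cycle element can then be set beside their response. RefSeq promoter windows (assembly GRCh38.p14, 250 bases before to 50 bases after the start of a gene) were at hand for 8 of the 10 members, all but BUB3 and TTK. The cell cycle genes homology region, CHR, is an element of promoters active in G2 and mitosis that is bound by the MuvB complex; it was searched on both strands as TTTGAA or TTCGAA. The letters were present in 6 of the 8 windows, in each case within the 50 bases on either side of the start, while they occur somewhere in the window for 16.6% of 27305 promoters and within that nearer stretch for 5.05%. Among the 11216 promoters of tested genes the shares were 12% and 3.45%. The stretches of 30 bases that hold them lie at chr2:110678045-110678074 on the minus strand for BUB1, chr15:40161034-40161063 on the plus strand for BUB1B, chr4:120066807-120066836 on the minus strand for MAD2L1, chr18:2571548-2571577 on the plus strand for NDC80, chr1:163321958-163321987 on the plus strand for NUF2, and chr2:168890416-168890445 on the minus strand for SPC25. They are printed 5′ to 3′ on the strand of the gene, with the CHR letters in capitals.
BUB1: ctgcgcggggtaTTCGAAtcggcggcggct
BUB1B: gggaccgttaaaTTTGAAacttggcggcta
MAD2L1: tgcgtcgttactTTTGAAacgcttggcggg
NDC80: gagaatTTCAAATTCGAAcggctttggcgg
NUF2: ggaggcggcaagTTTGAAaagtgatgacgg
SPC25: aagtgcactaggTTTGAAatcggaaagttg

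In NDC80 a match on the opposite strand, printed as TTCAAA, stands directly before TTCGAA, which reads the same on both strands. Counted from 1 at the start, with -1 the base before it, the matches began at 2 in BUB1, -23 in BUB1B, 25 in MAD2L1, -3 and 4 in NDC80, 17 in NUF2 and -3 in SPC25, which held a further one at -247. The windows of MAD1L1 and SPC24, the members that rose, did not hold these letters. SPC25, which holds them, was called in no line, with log2 fold changes of 0.01 in SNT-8, 0.13 in SNK-10 and 0.05 in SNT-16. For MAD1L1 and SPC24 the last 100 bases before the start follow, at chr7:2232946-2233045 and chr19:11155783-11155882, both on the minus strand, with capitals for the letters of a CCAAT box, the element bound by NF-Y.
MAD1L1: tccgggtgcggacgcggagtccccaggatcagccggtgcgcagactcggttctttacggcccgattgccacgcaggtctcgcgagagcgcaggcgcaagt
SPC24: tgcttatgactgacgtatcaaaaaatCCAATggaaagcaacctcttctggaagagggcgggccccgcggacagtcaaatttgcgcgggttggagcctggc

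CCAAT or its complement ATTGG occurred in 4 of the 8 windows, in BUB1, MAD2L1, SPC24 and SPC25, beside 35.7% of all promoters and 37.3% of those of tested genes. The E2F letters TTCGCGC or TTGGCGC, on both strands, occurred in 1 window, that of MAD2L1, beside 5.18% of all promoters and 8.07% of those of tested genes. Among tested genes with a window, the nearer stretch held the CHR letters in 4.53% of the 1722 that fell in each line, in 3.01% of the 1493 that rose in each line and in 3.45% of all 11216. A match of letters is a description of the window and does not show that a factor binds there.

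TTK, also known as MPS1, is the kinase that starts checkpoint signalling. In SNT-8 it had 64.8, 62.6 and 66.6 CPM (expected counts scaled to the size of the library after TMM) in icaritin libraries, against 86.1, 84.9 and 89.7 CPM in DMSO libraries. SNT-16 gave 67.4, 66.7 and 68.2 CPM with icaritin, against 84.6, 85.8 and 89.9 CPM with DMSO. The SNK-10 libraries held 78.6, 81.1 and 96.5 CPM with icaritin, against 80.7, 80 and 78.3 CPM with DMSO. Both SNT lines thus had every icaritin library below every DMSO library, whereas in SNK-10 the groups overlapped and the spread among icaritin libraries was wide. TTK fell by 0.43 ± 0.0611 (SE) on the log2 scale in SNT-8 (adjusted p = 1.99e-07) and by 0.36 ± 0.0606 in SNT-16 (adjusted p = 4.4e-06), which left 74.4% and 77.7% of the DMSO level. The value in SNK-10 was 0.1 ± 0.0606 (adjusted p = 0.181).

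BUB1, a kinase that marks the inner centromere for the chromosomal passenger complex and builds the checkpoint platform, had the highest level of the 3 kinase genes and fell in each line. Its icaritin libraries had 186.5, 144.8 and 176.5 CPM in SNT-8, against 265.5, 256.9 and 251.7 CPM with DMSO. For SNK-10 the values were 193.9, 191.1 and 203.6 CPM with icaritin and 232.4, 233.4 and 230.3 CPM with DMSO. For SNT-16 they were 167.2, 168.7 and 188.7 CPM with icaritin and 263.9, 256.3 and 264.6 CPM with DMSO. No icaritin library reached a DMSO library of its line. The log2 fold change was -0.61 ± 0.0596 (SE) in SNT-8 (adjusted p = 2.48e-10), -0.24 ± 0.0597 in SNK-10 (adjusted p = 0.00103) and -0.58 ± 0.0593 in SNT-16 (adjusted p = 8.13e-10). Icaritin replicate 2 of SNT-8 was the lowest of all 18; without it the value in SNT-8 was -0.51 (adjusted p = 3.65e-12).

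BUB1B encodes BUBR1, the pseudokinase of the complex that restrains CDC20. Its levels in SNT-8 were 88.4, 71.2 and 76.8 CPM with icaritin, against 112.6, 119.7 and 122.5 CPM with DMSO. In SNK-10 they were 106, 103.1 and 118.2 CPM with icaritin, against 124.8, 126.8 and 125.6 CPM with DMSO. In SNT-16 they were 92.7, 96.1 and 97.5 CPM with icaritin, against 114.6, 116.5 and 125.3 CPM with DMSO. The groups were apart in each line, with the narrowest gap in SNK-10, where icaritin replicate 3 came close to the DMSO libraries. BUB1B fell to 66.6% of the DMSO level in SNT-8 (log2 fold change -0.59 ± 0.0618 SE, adjusted p = 2.39e-10; -0.52 without icaritin replicate 2), to 86.8% in SNK-10 (-0.2 ± 0.0602, adjusted p = 0.00453) and to 80.3% in SNT-16 (-0.32 ± 0.0605, adjusted p = 3.87e-05).

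Of the adaptors, 1 fell, 1 rose and 1 was not called in the mean response. MAD2L1 encodes MAD2, which closes around CDC20 to form the inhibitor of the APC/C. It had 71.5, 75.9 and 62.6 CPM in icaritin libraries of SNT-8, against 94.1, 84.2 and 88.9 CPM in DMSO libraries. SNK-10 had 82.6, 77.2 and 89.5 CPM after icaritin, against 86.2, 87.2 and 84.8 CPM after DMSO. SNT-16 had 69.3, 74.5 and 75.1 CPM after icaritin, against 76.6, 80.7 and 79.8 CPM after DMSO. The groups overlapped in SNK-10 and stood apart by a small margin in SNT-16. MAD2L1 fell in SNT-8 by 0.35 ± 0.0633 (SE) on the log2 scale (adjusted p = 1.45e-05), while the values of -0.05 ± 0.0632 in SNK-10 (adjusted p = 0.541) and -0.12 ± 0.0636 in SNT-16 (adjusted p = 0.149) did not pass the threshold.

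MAD1L1 encodes MAD1, the kinetochore-bound partner on which MAD2 is converted to its closed form, and it rose in each line. Its icaritin libraries had 67.3, 74.1 and 79.7 CPM in SNT-8, against 56.1, 54.7 and 54.6 CPM in DMSO libraries. They had 96.9, 99 and 93.7 CPM in SNK-10, against 64.9, 64.8 and 73.7 CPM in DMSO libraries. The SNT-16 values were 67.1, 70.2 and 75 CPM with icaritin, against 44.6, 48.4 and 48.3 CPM with DMSO. Every icaritin library exceeded every DMSO library of its line. The gain was 1.34-fold in SNT-8 (log2 fold change 0.42 ± 0.0651 SE, adjusted p = 9.15e-07), 1.42-fold in SNK-10 (0.51 ± 0.0626, adjusted p = 8.22e-09) and 1.5-fold in SNT-16 (0.59 ± 0.0666, adjusted p = 1.83e-09).

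BUB3, the WD40 adaptor that brings BUB1 and BUB1B to the kinetochore, ranged from 198.8 to 232.6 CPM in icaritin libraries of the 3 lines and from 196.1 to 223.6 CPM in DMSO libraries. The groups overlapped in each line. Its log2 fold change in counts was -0.04 ± 0.0517 (SE) in SNT-8 (adjusted p = 0.593), 0.06 ± 0.0521 in SNK-10 (adjusted p = 0.357) and 0.04 ± 0.0514 in SNT-16 (adjusted p = 0.624). On FPKM the values were lower. In limma on log2(FPKM + 0.1), BUB3 was at -0.11 in the mean response (adjusted p = 0.00289), where counts gave 0.02. In SNT-8, where counts gave a negative value too, it was at -0.14 (adjusted p = 0.0298).

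That difference between units goes with the transcript length that the authors gave beside each value, by which FPKM divides the count. The length of BUB3 averaged 2312 ± 66 bases (SD, n = 3) in icaritin libraries of SNT-8, against 2085 ± 19 bases in DMSO libraries. It averaged 2124 ± 21 bases with icaritin in SNK-10, against 1936 ± 18 bases with DMSO, and 2254 ± 7 bases with icaritin in SNT-16, against 2040 ± 8 bases with DMSO. MAD1L1 went the other way, with 1999 ± 38 bases after icaritin and 2193 ± 39 bases after DMSO in SNT-8. Its length was 1798 ± 45 bases after icaritin and 1950 ± 39 bases after DMSO in SNK-10, and 1869 ± 34 bases after icaritin and 2152 ± 49 bases after DMSO in SNT-16. For neither gene did the groups overlap in any line. Over the lines, BUB3 was on average longer by 210 bases and MAD1L1 shorter, with a difference of -209 bases (two-sided exact permutation test within lines over 8000 arrangements, adjusted p = 0.000625 for both, raw p = 0.00025, the smallest these arrangements can give). This test was added after the data were seen and covered the 5 members whose length varied by 1.6% or more between libraries. Lengths of other genes were not tested, so the share of all genes with such a difference is not known here. BUB1 (7 bases, adjusted p = 0.574), NUF2 (-15 bases, adjusted p = 0.0638) and SPC24 (17 bases, adjusted p = 0.589) did not pass. The files list several transcripts for such a gene but no level for each, so which transcripts changed was not tested.

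**Figure D2:**
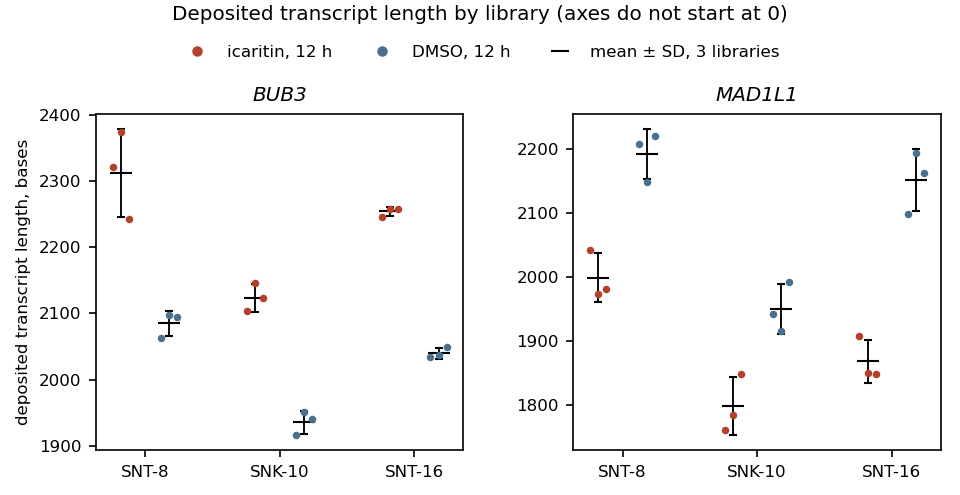
The deposited transcript length of BUB3 and MAD1L1, in bases, is plotted by line for each library, icaritin left of DMSO, with the mean ± SD of 3 libraries; the axes do not start at 0. In each line BUB3 was longer and MAD1L1 shorter in all icaritin libraries than in any DMSO library.

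The 4 subunits of the NDC80 complex moved apart from each other. NUF2, the partner of NDC80 in the microtubule-binding end, showed the deepest fall of all 10 members in SNT-8 and SNK-10 and, by a margin within the error over BUB1, in SNT-16. Its icaritin libraries had 60.7, 52.5 and 53.9 CPM in SNT-8, against 94.5, 96.5 and 105.5 CPM in DMSO libraries. SNK-10 gave 58.2, 52.6 and 64.5 CPM with icaritin, against 84.8, 82.1 and 87.4 CPM with DMSO. SNT-16 gave 57.2, 60 and 58 CPM with icaritin, against 87, 80.2 and 96.4 CPM with DMSO. The 9 icaritin libraries thus lay below the 9 DMSO libraries across all 3 lines. NUF2 fell to 56.3% of the DMSO level in SNT-8 (log2 fold change -0.83 ± 0.069 SE, adjusted p = 7.35e-13), to 68.9% in SNK-10 (-0.54 ± 0.0706, adjusted p = 4.11e-08) and to 66.5% in SNT-16 (-0.59 ± 0.0691, adjusted p = 4.74e-09).

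NDC80 itself, also called HEC1, carries the calponin-homology head that contacts the microtubule. Its values in SNT-8 were 50.8, 34.6 and 49.1 CPM with icaritin, against 59.8, 58.8 and 61.3 CPM with DMSO. In SNK-10 they were 54, 55.2 and 61.9 CPM with icaritin, against 66.4, 63 and 63.1 CPM with DMSO. In SNT-16 they were 53.8, 55.8 and 52.4 CPM with icaritin, against 62.5, 58.3 and 57.6 CPM with DMSO. The icaritin libraries were the lower ones in each line, by little in SNK-10 and SNT-16, and replicate 2 of SNT-8 was far below the rest. NDC80 fell in SNT-8 by 0.42 ± 0.0867 (SE) on the log2 scale (adjusted p = 0.000172); without that replicate the value was -0.27 (adjusted p = 0.00105). The values of -0.17 ± 0.0847 in SNK-10 (adjusted p = 0.101) and -0.14 ± 0.0845 in SNT-16 (adjusted p = 0.2) did not pass the threshold. Both depended on which libraries entered the fit: with each line fitted alone, the adjusted p was 0.0159 in SNK-10 and 0.0389 in SNT-16, and in SNK-10 it was 0.0149 without icaritin replicate 2 of SNT-8 and 0.0423 without icaritin replicate 3 of SNK-10.

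SPC24, which with SPC25 joins the complex to the inner kinetochore, rose in each line. SNT-8 had 41.9, 46.2 and 48.5 CPM in icaritin libraries, against 30.9, 33.7 and 30.1 CPM in DMSO libraries. SNK-10 had 52.4, 50.4 and 53.2 CPM with icaritin, against 33.9, 31.9 and 29 CPM with DMSO. SNT-16 had 38.9, 37.3 and 45.6 CPM with icaritin, against 31.5, 32.8 and 30.5 CPM with DMSO. All 9 icaritin libraries exceeded all 9 DMSO libraries, whose level hardly differed between lines. The gain was 1.44-fold in SNT-8 (log2 fold change 0.53 ± 0.0786 SE, adjusted p = 4.13e-07), 1.65-fold in SNK-10 (0.72 ± 0.0786, adjusted p = 5.81e-10) and 1.28-fold in SNT-16 (0.36 ± 0.0795, adjusted p = 0.000259). SPC25, its direct partner, ranged from 59.4 to 83.9 CPM in icaritin libraries and from 58.3 to 78.6 CPM in DMSO libraries, overlapped in each line and was called in none, with log2 fold changes of 0.01 ± 0.0656 in SNT-8, 0.13 ± 0.0667 in SNK-10 and 0.05 ± 0.0629 in SNT-16.

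**Figure D3:**
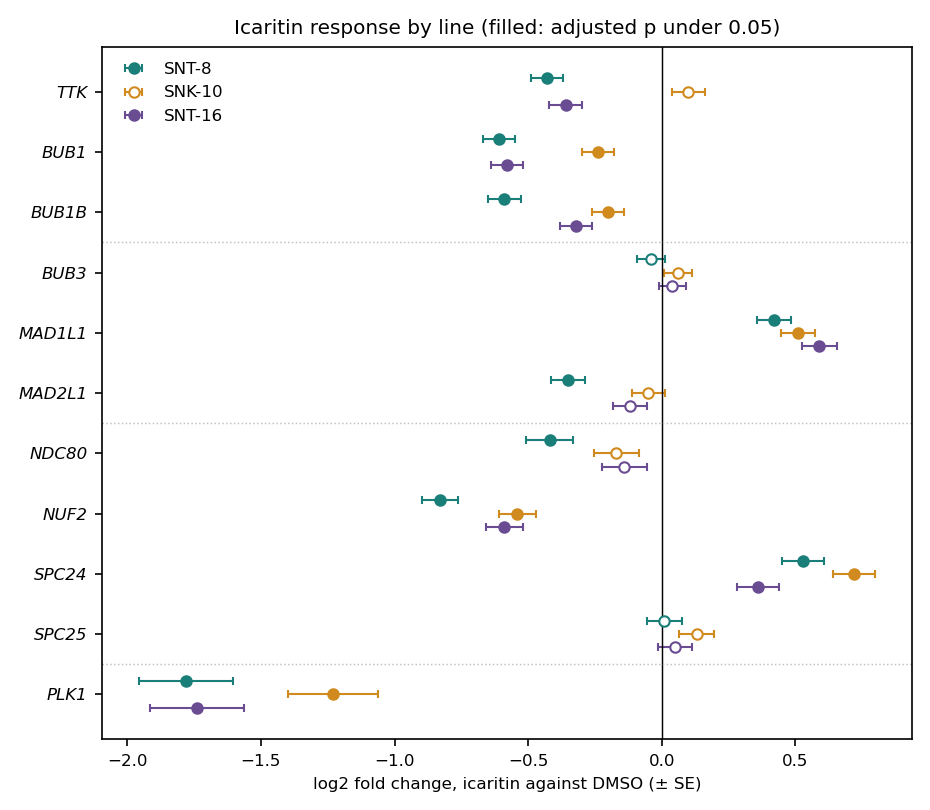
For each member, and PLK1 below the last dotted line, the log2 fold change of icaritin against DMSO is plotted with its SE, in SNT-8, SNK-10 and SNT-16; filled points passed an adjusted p of 0.05. MAD1L1 and SPC24 lie right of 0 in each line, BUB1, BUB1B and NUF2 left of it, and the SNK-10 point of TTK lies at 0.1 while those of SNT-8 and SNT-16 lie at -0.43 and -0.36.

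Because the subunits of a complex act together, 9 ratios of FPKM between partners were compared within libraries, where library scaling cancels. The ratio of NUF2 to SPC24 averaged 1.12 in icaritin libraries of SNT-8, against 2.82 in DMSO libraries. It was 1.09 with icaritin and 2.52 with DMSO in SNK-10, and 1.37 with icaritin and 2.62 with DMSO in SNT-16. The FPKM levels of the 2 transcripts were thus nearer to each other after icaritin in each line, with overlapping ranges in SNT-8 and SNK-10, while in SNT-16 every icaritin library still had more NUF2 (31.17 to 32.35 FPKM) than SPC24 (21.28 to 25 FPKM). On the log2 scale the mean difference over the lines was -1.16 for NUF2 to SPC24, -0.77 for NDC80 to SPC24, -0.7 for NUF2 to SPC25 and -0.31 for NDC80 to SPC25. Within the pairs that bind each other directly, NDC80 to NUF2 gained 0.39 and SPC24 to SPC25 gained 0.46. Among checkpoint partners, MAD2L1 to MAD1L1 differed by -0.83, BUB1 to BUB3 by -0.36 and BUB1B to BUB3 by -0.25. The ratio of MAD2L1 to MAD1L1 was 1.32 with icaritin and 2.46 with DMSO in SNT-8, 1.07 with icaritin and 1.72 with DMSO in SNK-10, and 1.33 with icaritin and 2.5 with DMSO in SNT-16. In a two-sided exact permutation test within lines, adjusted over the 9 ratios, the p was 0.000281 for 8 of them and 0.0005 for NDC80 to SPC25, with 0.00025 the smallest raw p that the 8000 arrangements allow. Ratios of other gene pairs were not tested, so these p-values do not set the complexes apart from other pairs. In the mean response 61.7% of all tested genes were called. The ratios to BUB3 and MAD1L1 also carry the change in their deposited length; computed from CPM they were -0.39 for BUB1B to BUB3, -0.5 for BUB1 to BUB3 and -0.68 for MAD2L1 to MAD1L1.

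**Figure D4:**
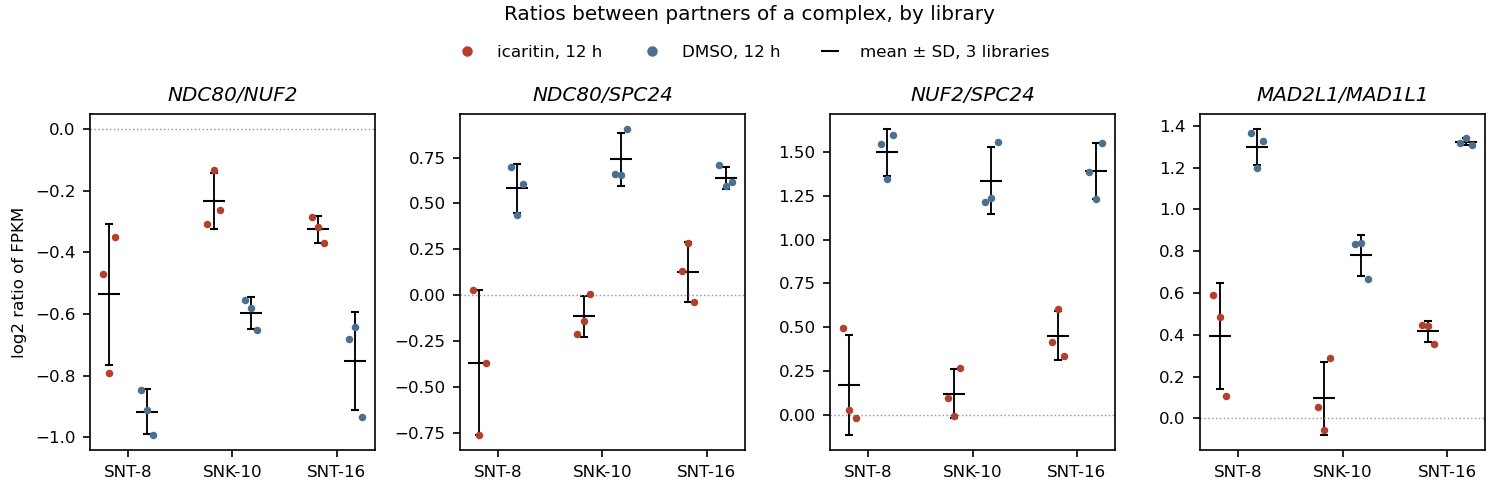
The log2 ratio of FPKM is plotted by line for 4 pairs of partners, with icaritin left of DMSO, points for libraries and black marks for the mean ± SD of 3 libraries. NUF2 to SPC24 and NDC80 to SPC24 were lower in all icaritin libraries of a line than in its DMSO libraries, NDC80 to NUF2 was higher, and in both ratios of NDC80 the lowest icaritin point of SNT-8 is replicate 2.

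Whether the response differed between lines was tested with an interaction term, which 4 of the 10 members passed, beside 14.3% of all tested genes. The adjusted p was 2.54e-05 for TTK, 0.00302 for BUB1, 0.00456 for BUB1B and 0.0395 for MAD2L1. NUF2 (0.0727), SPC24 (0.0672) and NDC80 (0.194) did not pass. Pairwise differences of the responses were added after the data were seen. The response of SNK-10 minus that of SNT-8 was positive for 4 called members, beside 6.69% of all tested genes called in that direction: TTK by 0.53 ± 0.086 (SE, adjusted p = 3.72e-05), BUB1 by 0.37 ± 0.0843 (0.00343), BUB1B by 0.38 ± 0.0863 (0.00243) and MAD2L1 by 0.3 ± 0.0894 (0.0246). For these 4 the fall in SNK-10 was therefore smaller than in SNT-8, or there was none. The response of SNK-10 minus that of SNT-16 was positive for 3, beside 6.74% of all tested genes: TTK by 0.46 ± 0.0857 (adjusted p = 0.000186), BUB1 by 0.34 ± 0.0841 (0.0059) and SPC24 by 0.36 ± 0.112 (0.029), the last being a larger gain in SNK-10. For the response of SNT-8 minus that of SNT-16, DESeq2 gave no adjusted p to 8094 of the 14396 genes. Between these lines no member was called in edgeR, beside 0.438% of all tested genes, nor in DESeq2, beside 0.8% of all 14396. In each, 4 members had an unadjusted p under 0.05, a rule for which the share of all tested genes was not computed. In edgeR these were BUB1B, MAD2L1, NDC80 and NUF2, each with the deeper fall in SNT-8. The lack of a call does not show that the responses were equal. In limma on FPKM, TTK alone kept a called interaction, beside 12.5% of all tested genes on log2(FPKM + 0.1). There the adjusted p was 0.0795 for BUB1, 0.068 for BUB1B and 0.106 for MAD2L1. The MAD2L1 call was also lost in 12 of the 18 fits that left out a library, while SPC24 and NUF2 gained a call in 3 each and NDC80 in 1; without icaritin replicate 2 of SNT-8 the p of SPC24 was 0.0444. The difference of SPC24 between SNK-10 and SNT-16 was not called with total counts in place of TMM (adjusted p = 0.0669), in limma (0.225 and 0.211) or in 6 of the fits that left out a library (0.0523 to 0.104). That of MAD2L1 between SNK-10 and SNT-8 was not called with total counts (0.0878), in limma (0.0956 and 0.0855) or in 4 such fits (0.0598 to 0.0913), and both of BUB1 were not called in limma (0.0649 to 0.0731).

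In DMSO libraries the order of the members by FPKM, which is per transcript length, was nearly the same in each line. BUB3 was the most abundant, at 100 ± 2.27 FPKM (SD, n = 3) in SNT-8, 103.5 ± 4.27 in SNK-10 and 107.2 ± 4.96 in SNT-16. BUB1 followed at 69.9 ± 2.31, 62.3 ± 0.971 and 73.2 ± 1.3 FPKM in the same order of lines. MAD2L1 came next at 61 ± 3.23, 58.5 ± 0.899 and 55.9 ± 1.52 FPKM, with values overlapping those of SPC25 in SNT-16. NUF2 and SPC25 overlapped in SNT-8 and in SNK-10, where both lay between 43 and 50.6 FPKM on average. TTK, BUB1B, NDC80 and MAD1L1 had means between 22.3 and 34.1 FPKM, and SPC24 was the least abundant, at 17.9 ± 1.53, 17.1 ± 1.87 and 17.6 ± 0.257 FPKM. After icaritin SPC24 was no longer the last in any line: NDC80 was the last in SNT-8 (20.7 ± 4.32 FPKM) and in SNK-10 (24.7 ± 1.24 FPKM), and TTK in SNT-16 (23.1 ± 0.378 FPKM), though each overlapped with its neighbour in the order. The place of NDC80 in SNT-8 rested on replicate 2, at 15.72 FPKM: over the other libraries it averaged 23.2 FPKM, above BUB1B at 22.4 and TTK at 22.3 FPKM. MAD1L1 took the third place in SNK-10 after icaritin, at 51.7 ± 3.81 FPKM, where its range overlapped that of BUB1 (51.6 ± 0.658 FPKM).

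Baseline differences between lines were called for 2 or 3 of the 10 members in each comparison. SNK-10 against SNT-8 gave 3 calls, beside 57.6% of all tested genes: MAD1L1 was higher in SNK-10 by 0.3 ± 0.0661 (log2, SE, adjusted p = 0.000167), and NUF2 at -0.22 ± 0.0661 (0.00417) and BUB1 at -0.15 ± 0.0586 (0.0254) were lower. That BUB1 call was lost in limma (0.0603 and 0.0601) and in 4 of the fits that left out a library (0.0522 to 0.0969). SNK-10 against SNT-16 also gave 3, beside 57.8%: MAD1L1 was higher by 0.52 ± 0.0674 (adjusted p = 1.19e-08), and SPC25 at -0.31 ± 0.0652 (0.0001) and BUB1 at -0.17 ± 0.0585 (0.0117) were lower. The share of members called was thus below that of all genes in both comparisons, but TTK was near the threshold (adjusted p in edgeR = 0.0733 and 0.0773). By the values alone, 3 members had every SNK-10 library above every library of the SNT line, and 3 had every one below. These counts were the same against SNT-8 and SNT-16, and the share of all tested genes under that rule was not computed. Between SNT-8 and SNT-16, MAD1L1 was higher in SNT-8 by 0.22 ± 0.0688 (adjusted p = 0.0235) and SPC25 lower at -0.23 ± 0.0645 (0.0108), beside 13.2% of all tested genes, and neither gene was called without DMSO replicate 2 or without DMSO replicate 3 of SNT-8. SPC25 alone was called without DMSO replicate 1 of SNT-8 or replicate 1 of SNT-16, and its call was lost without DMSO replicate 3 of SNT-16 (adjusted p = 0.0886). Without icaritin replicate 2 of SNT-8, both genes were called, with MAD2L1 at 0.17 (adjusted p = 0.0284) and NUF2 at 0.17 (adjusted p = 0.05 after rounding up) as well.

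The partners of these genes, from lists chosen with earlier results of these data known, divided as well. Of 9 tested checkpoint proteins beyond the members, 8 fell and 1 rose in the mean response, beside a background of 30% lower and 31.7% higher. CDC20, the activator of the APC/C that the checkpoint complex holds, fell by 1.54 ± 0.0431 (log2, SE), SGO2, a protector of centromere cohesion, by 1.04 ± 0.0409, MAD2L1BP, which helps to take the checkpoint complex apart, by 0.47 ± 0.0598, and SPDL1, a dynein adaptor of kinetochores, by 0.35 ± 0.0372. The exception was KNTC1, a subunit of the RZZ complex that recruits MAD1L1 and dynein, at 0.1 ± 0.0302. Among the other subunits of the KMN network, the outer kinetochore assembly that holds the NDC80 complex, 3 of 6 fell and 2 rose: MIS12 at -0.37 ± 0.0361 and DSN1 at 0.36 ± 0.038 are subunits of the same complex and went opposite ways. KNL1, the scaffold for BUB1 and BUB3, was at 0 ± 0.0318 (adjusted p = 0.953).

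Beside the counts of the next lists, 30% of all tested genes were lower and 31.7% higher in the mean response. Of 10 kinetochore proteins that bind microtubules, 6 fell and 2 rose. CENPE, the kinetochore kinesin, fell by 1.22 ± 0.0631, KNSTRN by 0.9 ± 0.047 and SPAG5, its partner at the spindle, by 0.49 ± 0.0323, while SKA1, whose complex works with NDC80 on microtubule ends, rose by 0.39 ± 0.0359. The inner kinetochore was mixed, with 6 of 20 lower, near the share of all tested genes, and 9 higher. CENPX was at -0.58 ± 0.0512 and CENPT, an anchor for the NDC80 complex, at -0.43 ± 0.0472, whereas CENPU was at 0.47 ± 0.0353 and CENPM at 0.46 ± 0.0468. Core subunits of the APC/C, the target of the checkpoint, were lower in 11 of 14 and higher in 2, with CDC26 at -0.67 ± 0.0558, ANAPC1 at -0.46 ± 0.0295, ANAPC5 at -0.38 ± 0.03 and CDC27 at -0.34 ± 0.0291. Its partners and substrates fell in 7 of 8, with UBE2S, the ubiquitin-conjugating enzyme that extends chains, at -0.94 ± 0.0293, PTTG1 (securin) at -0.82 ± 0.0352, CCNB2 (cyclin B2) at -0.57 ± 0.0358 and CCNA2 (cyclin A2) at -0.45 ± 0.0301; the exception, FZR1, was at 0.06 ± 0.0403 and not called. The regulators known to act on G2 and mitosis promoters did not share that direction in the mean response, where 9 of 14 rose and 3 fell. MYBL2 was at 0.57 ± 0.0264, LIN54, the DNA-binding subunit of MuvB, at 0.36 ± 0.0407, RBL2 at 0.34 ± 0.0328 and E2F4 at -0.25 ± 0.029. By line, 5 rose and 3 fell in SNT-8, beside 24% higher and 25% lower among all tested genes. SNK-10 had 8 that rose and 2 that fell, beside 24.4% and 24%. SNT-16 had 4 that rose and 2 that fell, beside 21.2% and 20.8%. Of 20 S phase genes, 10 rose and 9 fell. The 4 with the smallest p all rose, with CDT1, a licensing factor, at 0.95 ± 0.0292, TYMS at 0.48 ± 0.0255, GINS4 at 0.44 ± 0.0415 and RRM1 at 0.31 ± 0.0253, while UNG at -0.45 ± 0.0472 and CCNE1 (cyclin E1) at -0.45 ± 0.0549 were among those that fell. The lines differed there: 8 rose and 4 fell in SNT-8, beside 24% higher and 25% lower among all tested genes. In SNK-10, 6 rose and 10 fell, beside 24.4% and 24%, and in SNT-16, 11 rose and 2 fell, beside 21.2% and 20.8%. Of the 20, 12 passed the interaction test, beside 14.3% of all tested genes. The medians of the lists in the mean response were -0.24 for checkpoint proteins, -0.07 for other KMN subunits, -0.16 for microtubule binders, 0.09 for the inner kinetochore, -0.3 for APC/C subunits, -0.7 for its partners, 0.15 for the regulators and 0.04 for S phase genes, beside -0.2 for the members and 0.03 for all tested genes.

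**Figure D5:**
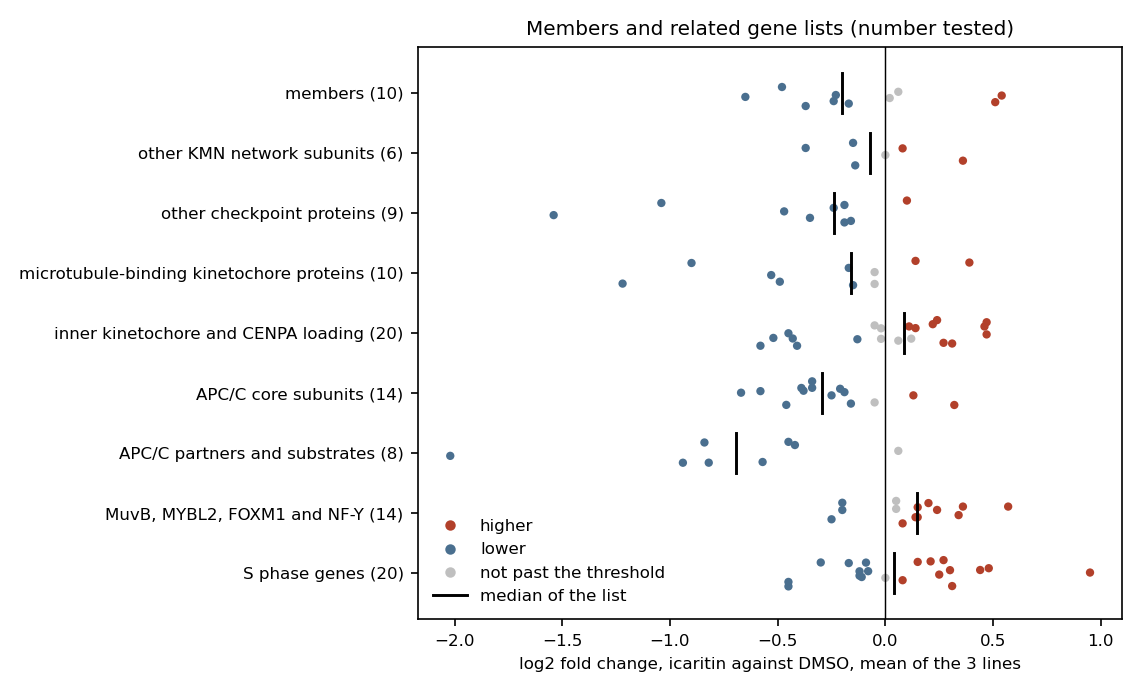
Each row is a gene list, with the members on top, and each point is a tested gene at its log2 fold change of icaritin against DMSO in the mean of the 3 lines; colours mark genes called higher or lower, grey those not called, and the bar is the median of the list. The members run from -0.65 (NUF2) to 0.54 (SPC24), a narrower span than that of the APC/C partners and the other checkpoint proteins, which reach -2.02 (CCNB1) and -1.54 (CDC20).

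The members did not vary as a unit across the 18 libraries. The correlation of each with the mean of the other 9, on standardized log2 CPM, was 0.83 for BUB1B, 0.82 for TTK, 0.69 for NDC80 and 0.68 for MAD2L1, 0.62 for BUB1, 0.47 for NUF2, 0.25 for BUB3, -0.09 for SPC25, -0.4 for MAD1L1 and -0.5 for SPC24. These points share treatment and line, so the values only describe the libraries. Of 9322 other genes with a mean of at least 10 CPM, those most like the mean of the members were FBXL5 (Pearson r = 0.873), ARF3 (0.862), REEP5 (0.86), PEX19 (0.86), INTS14 (0.851), BIRC2 (0.85), GNGT2 (0.847), NUP133 (0.844), RPRD2 (0.838) and LOC729683 (0.837), where the median over those genes was 0.065. Of these 10, 1 was among the nearest 10 by Spearman correlation and 2 among the nearest 10 on deviations from the mean of each line.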

How the data were processed

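RNA of 18 libraries was analysed from the tables deposited by the authors, which give for each NCBI Gene ID an expected count (the estimated number of fragments of the gene, not scaled), an FPKM value (the same per transcript length and per fragments of the library) and a transcript length in bases, per the file headers. Per the labels, libraries were made from total RNA with an MGIEasy kit, and Bowtie2 and HISAT are named in the submitters' processing notes without versions; no build, annotation, strand setting or counting tool is stated there (not given in the sources used here). Genes missing from a table were taken as 0. Symbols came from an NCBI table by ID for 21559 of 21662 IDs and by transcript for 24.

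After rounding the expected counts, edgeR 4.0.16 under R 4.3.3 was used: filterByExpr (minimum count 10, total 15), TMM factors (0.931 to 1.05), a robust quasi-likelihood fit of 6 group means over all 18 libraries with 12 residual degrees of freedom, and Benjamini-Hochberg adjustment over 14396 genes, two-sided, with a threshold of 0.05. The standard error of a log2 fold change is its size divided by the square root of F. The common biological coefficient of variation was 4.4%. Ratios used log2(FPKM + 0.01) and exact permutations within lines. Alternatives were DESeq2 1.42.0, other scalings, no filter, limma 3.58.1 on FPKM, each line alone, the replicate number as a block and leaving out each library. The same replicate number did not pair icaritin with DMSO libraries (correlations of deviations from -0.058 to 0.055). Of the genes that overlap a member, those listed in the deposited tables had a mean expected count of at most 10.94, against 662.2 or more for those members. The others, among them all that overlap MAD1L1 and NDC80, were not listed, so they have no count to compare. The genes named beyond the members are PLK1, up to 4 of each list by the smallest p in the mean response with any gene needed to describe a mixed list (KNTC1, KNL1, FZR1, UNG and CCNE1), and the 10 most like the members; CCNB1 in a caption was chosen after its value was seen. The members and lists were chosen with earlier results of these data known, and promoter windows are from RefSeq on GRCh38.p14.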

Additional observations from a re-analysis of the deposited data

Results flagged for a closer look

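The icaritin response of 4 members differed between the 3 lines in the interaction test of edgeR, with adjusted p of 2.54e-05 for TTK, 0.00302 for BUB1, 0.00456 for BUB1B and 0.0395 for MAD2L1. Their log2 fold changes in SNT-8, SNK-10 and SNT-16 were -0.43, 0.1 and -0.36 for TTK, -0.61, -0.24 and -0.58 for BUB1, -0.59, -0.2 and -0.32 for BUB1B, and -0.35, -0.05 and -0.12 for MAD2L1.

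The deposited transcript length, a column outside the counts, differed between icaritin and DMSO libraries for 2 members: BUB3 by 210 bases and MAD1L1 by -209 bases, with differences in SNT-8, SNK-10 and SNT-16 of 227, 188 and 214 bases for BUB3 and -193, -152 and -283 bases for MAD1L1. Leaving out each library in turn gave 200 to 222 bases for BUB3 and -218 to -202 bases for MAD1L1. Whether genes beyond the members differed in the same way was not tested.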

How the results depend on the processing

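The calls of icaritin against DMSO held best. The count of called members stayed at 8 in SNT-8, 6 in SNT-16 and 8 in the mean response when each library was left out, and at 5 to 6 in SNK-10, and the 9 ratios kept their direction and call. With a library left out the interaction gave 3 to 6 calls, DMSO libraries of SNK-10 gave 2 to 4 against SNT-8 and 3 to 4 against SNT-16, those of SNT-8 against SNT-16 gave 0 to 4, and the response differences gave 3 to 5 for SNK-10 minus SNT-8, 2 to 3 for SNK-10 minus SNT-16 and 0 to 1 for SNT-8 minus SNT-16, the 1 without icaritin replicate 1 of SNT-8. In limma on log2(FPKM + 0.1) and on log2(FPKM + 1) alike, the interaction gave 1 call, beside 12.5% and 14.8% of all tested genes in these fits. For 10 members that is near the share of all tested genes. SNK-10 minus SNT-8 gave 2 (beside 10% and 12%), SNK-10 minus SNT-16 gave 1 (12.5% and 14.6%) and DMSO libraries of SNT-8 against SNT-16 gave 1 (11.4% and 12%). With total counts in place of TMM, DMSO libraries gave 5 calls for SNK-10 against SNT-16, beside 58.4% of all tested genes. They gave 1 for SNT-8 against SNT-16, beside 13.6%. Without the filter on low counts the last comparison gave 4, beside 9.8%. The causes of these changes were not tested.

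The replicate number as a block gave 0 calls for DMSO libraries of SNT-8 against SNT-16, beside 5.1% of all tested genes, and 2 for SNK-10 against SNT-16, beside 45.4%. It gave 3 for the interaction, where MAD2L1 had 0.06, beside 12%. The counts in SNT-8, SNK-10, SNT-16 and the mean response were 8, 5, 6 and 8, beside 47.6%, 47.2%, 40.4% and 60.8%. The libraries share only a number, so this does not pair them.

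Signs turned for 2 genes that were not called, BUB3 and SPC25. BUB3 in limma was at -0.109 and -0.108 in SNK-10, -0.088 and -0.087 in SNT-16 and -0.112 and -0.111 in the mean response, with 0.1 and 1 FPKM added; with total counts it was at 0.011 in SNT-8, and leaving out a library gave -0.020 to 0.083 in SNT-16. SPC25 in SNT-8 was at -0.001 without the filter, and leaving out a library gave -0.032 to 0.058 in SNT-8 and -0.028 to 0.091 in SNT-16. Depth, 10100453 counts at most, bears on SPC24 most, the member with the lowest CPM.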
